A study of Mus musculus with 4 samples.

Results

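Hsf1, Hsf2, Bag3, Stip1, Ahsa1, Ahsa2, Chordc1, Fkbp4, Hspa4l and Cacybp are 10 genes of the heat shock factors and of the co-chaperones that work with the chaperones Hsp70 and Hsp90. They were chosen by gene symbol on the array, and each was represented by 1 probe, so that 10 of 39429 probes, and 10 of the 31709 genes these probes represent, are described here. Their levels were compared between livers of male C57BL/6J mice, 8 to 12 weeks old, that had been fasted for 24 h and livers of mice of the same kind that had been fasted for 24 h and then given food for 2 h, called refed. RNA of 4 fasted and 4 refed livers, each from a separate animal, was hybridised to 4 two-colour oligonucleotide arrays. A fasted and a refed liver, randomly matched and labelled with the dyes Cy5 and Cy3, shared each array, and the 4 arrays are numbered as replicates. The fasted liver carried Cy5 on replicates 1 and 2 and Cy3 on replicates 3 and 4. Both groups had gone through the same fast, and no group fed without a fast was part of the comparison.

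Hsp90 folds and stabilises a late stage of many client proteins, among them kinases and steroid receptors, and it does so in a cycle of ATP binding and hydrolysis. Co-chaperones hand clients over from Hsp70, speed or slow the ATPase, or bring a particular class of client. Heat shock factors are the transcription factors that switch on chaperone genes when unfolded proteins accumulate, and they bind DNA at repeats of the short unit GAA in alternating orientation. In liver, the glucocorticoid receptor is an Hsp90 client with a known part in the response to fasting.

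All 7 called genes, Bag3, Chordc1, Hspa4l, Stip1, Cacybp, Fkbp4 and Ahsa1, had lower levels in fasted liver than in refed liver, by 1.77-fold to 3.50-fold. Hsf1 and Hsf2, the transcription factors, had mean log2 ratios of -0.31 and -0.14 and were not called. Ahsa2 was too dim to be tested. A gene was called where limma gave a Benjamini-Hochberg adjusted p under 0.10 and the change was 1.5-fold or more, limits taken from the study's methods. Of the 10 genes, 9 were bright enough to be tested, 7 of these were called lower and 0 were called higher. Before the background fit (normexp), 55 of 177588 spots with a high local background were left out. With all spots in that fit, 0 members were called (log2 ratios of the 7 from -1.26 to -0.41, adjusted p of 0.135 to 0.559 in limma), while 7 were called with the authors' own log2 ratios. Over all 19721 probes tested, 2.08% were called lower and 1.70% were called higher. The median log2 ratio was -1.29 over the 9 tested members and -0.0011 over all tested probes. In whole liver RNA, fewer cells of a type and less RNA per cell cannot be told apart.

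The promoters of Chordc1, Bag3 and Fkbp4 are shown because, among the 9 members with a promoter in the RefSeq table of the GRCm38.p6 build, these 3 hold a pair of GAA units in opposite orientation. Each window runs from 250 bases before the annotated start of transcription to 50 bases after it and is read 5′ to 3′ on the strand of the gene. The regions are chr9:18292017-18292316 on the plus strand for Chordc1, chr7:128523333-128523632 on the plus strand for Bag3 and chr6:128438607-128438906 on the minus strand for Fkbp4. Capitals mark the pairs GAANNTTC and TTCNNGAA.
Chordc1: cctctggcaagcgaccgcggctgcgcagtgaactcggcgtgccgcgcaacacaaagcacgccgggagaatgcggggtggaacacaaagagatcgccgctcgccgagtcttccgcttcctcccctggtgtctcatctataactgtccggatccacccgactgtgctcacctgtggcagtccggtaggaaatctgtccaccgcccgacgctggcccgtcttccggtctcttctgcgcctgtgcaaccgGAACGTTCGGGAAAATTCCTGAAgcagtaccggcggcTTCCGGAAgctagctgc
Bag3: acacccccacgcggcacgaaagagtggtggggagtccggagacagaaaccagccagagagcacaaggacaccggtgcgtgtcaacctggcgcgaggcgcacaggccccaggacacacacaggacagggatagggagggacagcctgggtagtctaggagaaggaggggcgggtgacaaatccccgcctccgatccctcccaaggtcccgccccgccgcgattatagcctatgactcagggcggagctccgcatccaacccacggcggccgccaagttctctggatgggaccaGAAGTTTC
Fkbp4: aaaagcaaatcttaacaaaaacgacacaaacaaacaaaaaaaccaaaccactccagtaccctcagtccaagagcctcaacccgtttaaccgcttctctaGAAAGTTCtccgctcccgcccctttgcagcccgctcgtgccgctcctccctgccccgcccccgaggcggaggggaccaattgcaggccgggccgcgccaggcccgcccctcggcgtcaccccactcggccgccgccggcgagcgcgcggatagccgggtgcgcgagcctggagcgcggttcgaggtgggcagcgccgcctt

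In the Chordc1 window, the capitals form an unbroken run of alternating units from base -4 to base 19 relative to the start of transcription, where the first transcribed base is 1, and a further pair lies at bases 34 to 41. The run holds 3 overlapping matches to a triple of units, searched on both strands as GAANNTTC continued by a further unit in alternating orientation. Bag3 holds 1 pair at bases 43 to 50, at the very end of its window, and Fkbp4 holds 1 pair at bases -151 to -144. Either pair is present in 15.1% of the 32851 promoter windows in the table, GAANNTTC in 7.86% and TTCNNGAA in 8.52%, and the triple, which overlaps the pairs, is present in 0.603%. Each pair reads the same on both strands. Hsf2, Hspa4l, Stip1, Ahsa1, Ahsa2 and Cacybp hold no match in these 300 bases. The windows of Hsf2, Hspa4l, Ahsa1 and Ahsa2 start from a transcript that begins 2619, 1113, 313 and 6 bases inside the annotated gene, and for Hsf2, Hspa4l and Ahsa1 the 5′ end of the gene lies outside the window.

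The study was made to follow CREB, a factor that binds the cAMP response element, and this motif was searched as well. The full palindrome TGACGTCA is in 1.79% of all windows and in 0 of the 9 member windows. Its short form TGACG, which the palindrome contains, searched on both strands, is in 20.8% of all windows. It lies in those of Stip1 (2 matches, at bases -214 to -210 and -188 to -184), Fkbp4 (bases -38 to -34) and Hspa4l (bases -247 to -243). A match to letters is a description of the window and was not set against any binding data here.

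**Figure D1:**
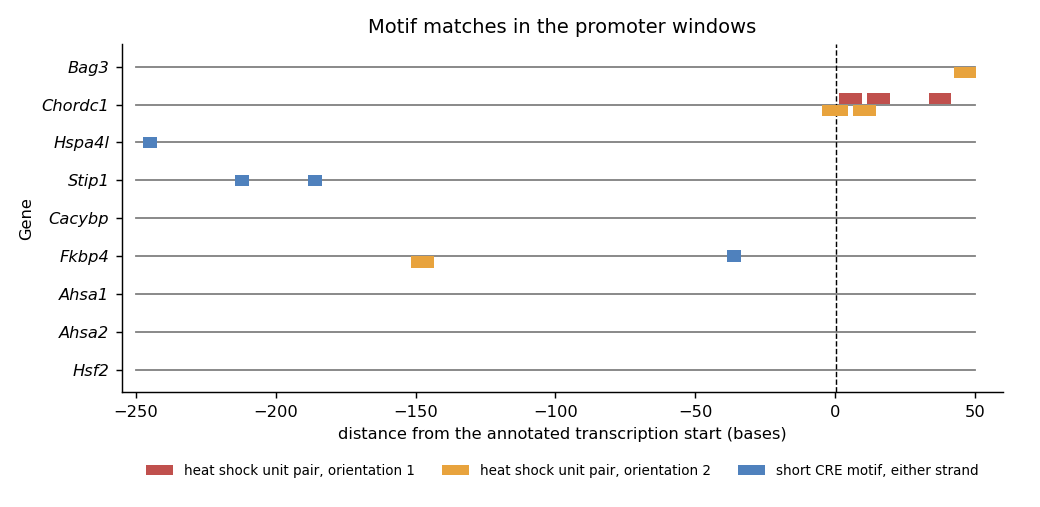
Motif matches along the promoter windows of the 9 members with an entry, with the distance from the annotated transcription start in bases on the x axis and 1 line for each gene. Red blocks are TTCNNGAA (orientation 1), orange blocks GAANNTTC (orientation 2) and blue blocks TGACG on either strand. Chordc1 carries a cluster of heat shock unit pairs around the start, Bag3 and Fkbp4 carry 1 pair each, and the short CRE motif lies in Hspa4l, Stip1 and Fkbp4.

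Ratios are given on the log2 scale, fasted liver over refed liver, for replicates 1 to 4 in order after normalization within arrays, and a negative value is a lower level in fasted liver. Levels are log2 intensities normalized between arrays as well, which can be compared between livers for 1 probe but not between probes. Probe positions are in the mm9 build that the files use, and the part of a transcript that a probe covers is not given in the sources used here.

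Hsf1 is the factor that drives most of the acute heat shock response, and its activity is largely set after translation. Its probe lies on chromosome 15 at 76331320 to 76331379. The log2 ratio of Hsf1 was -0.38, -0.17, -0.30 and -0.37. It was below 0 on all 4 arrays, with replicate 2 the nearest to 0. The mean was -0.31 ± 0.10 (SD, n = 4), with a 95% confidence interval from limma of -0.49 to -0.13, and the adjusted p in limma was 0.0674. Hsf1 was thus past the limit on p but short of 1.5-fold, and was not called. Without the limit on fold, where 6.16% of all tested probes were lower, it would have been. Normalized intensity of Hsf1 was 8.34 to 8.58 in the fasted livers and 8.72 to 8.96 in the refed livers, and the groups did not overlap.

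Hsf2 forms mixed trimers with Hsf1 and is known for its part in development and in proteotoxic stress. It was probed on chromosome 10 at 57232832 to 57232891. On the 4 arrays its log2 ratio was -0.04, -0.17, -0.08 and -0.27. All 4 values were negative, and those of replicates 1 and 3 were the nearest to 0. With a mean of -0.14 ± 0.10 (SD, n = 4), an interval of -0.32 to 0.04 and an adjusted p of 0.358 in limma, Hsf2 was not called, and the interval leaves out a fall of 1.5-fold. Neither Hsf1 nor Hsf2 was past 1.5-fold on any array.

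Bag3 releases ADP from Hsp70 and steers damaged clients towards autophagy. It had the lowest mean ratio of the 10 genes and was probed on chromosome 7 at 135690281 to 135690340. Bag3 had log2 ratios of -1.35, -1.83, -2.01 and -2.03. Replicate 1 gave the smallest fall, and replicates 3 and 4 gave nearly the same value. Fasted livers had normalized log2 intensities of 10.46, 10.89, 9.99 and 10.07, against 11.81, 12.72, 12.00 and 12.10 in the refed livers. The highest fasted liver lay 0.92 below the lowest refed liver. On average Bag3 was 3.50-fold lower in fasted liver, at -1.81 ± 0.32 (SD, n = 4; limma adjusted p of 0.00339), and it stood at 28.6% of its refed level.

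Hspa4l is a member of the Hsp110 family, which also exchanges nucleotide on Hsp70, and was probed on chromosome 3 at 40594227 to 40594286. Log2 ratios of Hspa4l were -0.93, -1.11, -1.97 and -2.19. The arrays fell into pairs by dye, with a mean of -1.02 where the fasted liver carried Cy5 and of -2.08 where it carried Cy3. Over the 4 arrays the mean was -1.55 ± 0.62 (SD, n = 4), or 2.92-fold lower, with an adjusted p of 0.0195 in limma. Fasted livers lay between 8.39 and 8.92 and refed livers between 9.84 and 10.58 in normalized log2 intensity. Of the members called lower, Hspa4l had the widest spread between arrays.

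Stip1, also called Hop, binds Hsp70 and Hsp90 at once and passes clients from the first to the second. It was probed on chromosome 19 at 7095433 to 7095492. Its log2 ratio was -1.33, -1.24, -1.38 and -1.29. These values had the smallest spread of the 10 genes and did not separate by dye. The mean was -1.31 ± 0.06 (SD, n = 4), which is 2.48-fold lower in fasted liver, with an interval of -1.48 to -1.14 and an adjusted p of 0.00188 in limma. Normalized log2 intensity was 9.18, 9.43, 9.11 and 9.34 in the fasted livers and 10.50, 10.67, 10.49 and 10.63 in the refed livers. The lowest refed liver was 1.06 above the highest fasted liver, the widest gap of the 10 genes.

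Chordc1, or morgana, is an Hsp90 co-chaperone with zinc-binding CHORD domains, and was probed on chromosome 9 at 18118100 to 18118159. Chordc1, whose promoter holds the cluster of GAA units shown above, had log2 ratios of -1.28, -1.11, -2.05 and -2.03. As for Hspa4l, the arrays separated by dye, at means of -1.19 with the fasted liver in Cy5 and -2.04 with it in Cy3. The mean over arrays was -1.62 ± 0.50 (SD, n = 4), or 3.07-fold lower, with an adjusted p of 0.0109 in limma. The fasted livers lay between 9.32 and 10.11 and the refed livers between 10.98 and 11.46 in normalized log2 intensity, with no overlap.

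Cacybp binds the calcium sensor calcyclin and the ubiquitin ligase Siah1 and resembles the Hsp90 co-chaperone Sgt1 in part of its sequence. It was probed on chromosome 1 at 162133616 to 162133675. Log2 ratios of Cacybp were -0.92, -1.13, -1.62 and -1.51. Each array showed a fall of at least 1.5-fold. The mean was -1.29 ± 0.32 (SD, n = 4), 2.45-fold lower, with an adjusted p of 0.00737 in limma. Normalized log2 intensity ran from 9.69 to 10.23 in the fasted livers and from 11.15 to 11.38 in the refed livers.

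Fkbp4, or FKBP52, is the immunophilin that joins steroid receptor complexes with Hsp90, and was probed on chromosome 6 at 128380528 to 128380587. Fkbp4 had log2 ratios of -0.74, -0.59, -1.61 and -1.51. Replicate 2 lay just past 1.5-fold, and both arrays with the fasted liver in Cy3 lay past 2-fold. The mean was -1.11 ± 0.52 (SD, n = 4), 2.16-fold lower, with an adjusted p of 0.0292 in limma. Without replicate 3 the mean was -0.94 with an adjusted p of 0.103 in limma, and Fkbp4 was no longer called. Without replicate 4 the mean was -0.98 with an adjusted p of 0.0989 in limma, and the call was only just kept. The other 6 called members kept their call when any 1 array was left out.

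Ahsa1 stimulates the ATPase of Hsp90 and was probed on chromosome 12 at 88614739 to 88614798. Ahsa1 had log2 ratios of -0.67, -0.79, -0.90 and -0.95. All 4 arrays lay past 1.5-fold and none reached 2-fold. The mean of -0.83 ± 0.13 (SD, n = 4), 1.77-fold lower with an adjusted p of 0.00648 in limma, was the smallest change among the called members. Normalized log2 intensity was 12.46 to 12.97 in the fasted livers and 13.37 to 13.69 in the refed livers.

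Ahsa2 is a relative of Ahsa1 whose function is less well known, and was probed on chromosome 11 at 23387913 to 23387972. The probe was well above background in 0 of 4 fasted and 3 of 4 refed livers and was therefore not tested. On the 4 arrays the normalized ratio stood at -0.10, -0.03, -0.44 and -0.11 on the log2 scale, values that rest on the background handling, as the mean of -0.17 became -0.68 with plain subtraction of the background and -1.27 with Agilent's processed signals. It was the only member whose fasted and refed livers overlapped in intensity. These ratios are therefore no estimate of a change in Ahsa2.

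**Figure D2:**
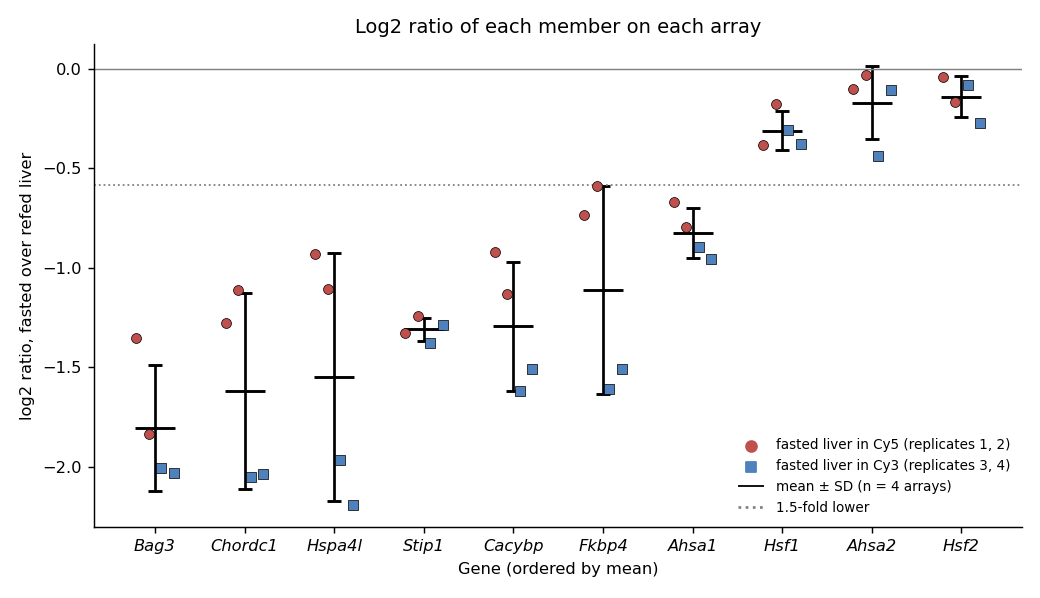
Log2 ratio of fasted over refed liver (y axis) for the 10 genes (x axis), ordered by their mean, with 1 point for each of 4 arrays, the mean as a bar and the SD as whiskers. Red circles are arrays with the fasted liver in Cy5 and blue squares arrays with it in Cy3. The points of Bag3, Chordc1, Hspa4l, Stip1, Cacybp, Fkbp4 and Ahsa1 all lie below the dotted line at 1.5-fold, and those of Hsf1, Ahsa2 and Hsf2 all lie above it. Ahsa2 was not tested, and its place in the order is set by the background.

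The 7 called members were at least 1.5-fold lower on each of the 4 arrays, which held for 0.700% of tested probes. In all 7 the highest fasted liver lay below the lowest refed liver, which was seen for 7.82% of tested probes. These are descriptions of the same 4 arrays and not further tests. Ranked by mean ratio, the order of the 9 tested members from lowest to highest was Bag3, Chordc1, Hspa4l, Stip1, Cacybp, Fkbp4, Ahsa1, Hsf1 and Hsf2. Neighbours in this order overlapped in their ranges over arrays, except that Ahsa1 lay below Hsf1 on 4 of 4 arrays, by 0.52 ± 0.16 (SD of the difference, n = 4).

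**Figure D3:**
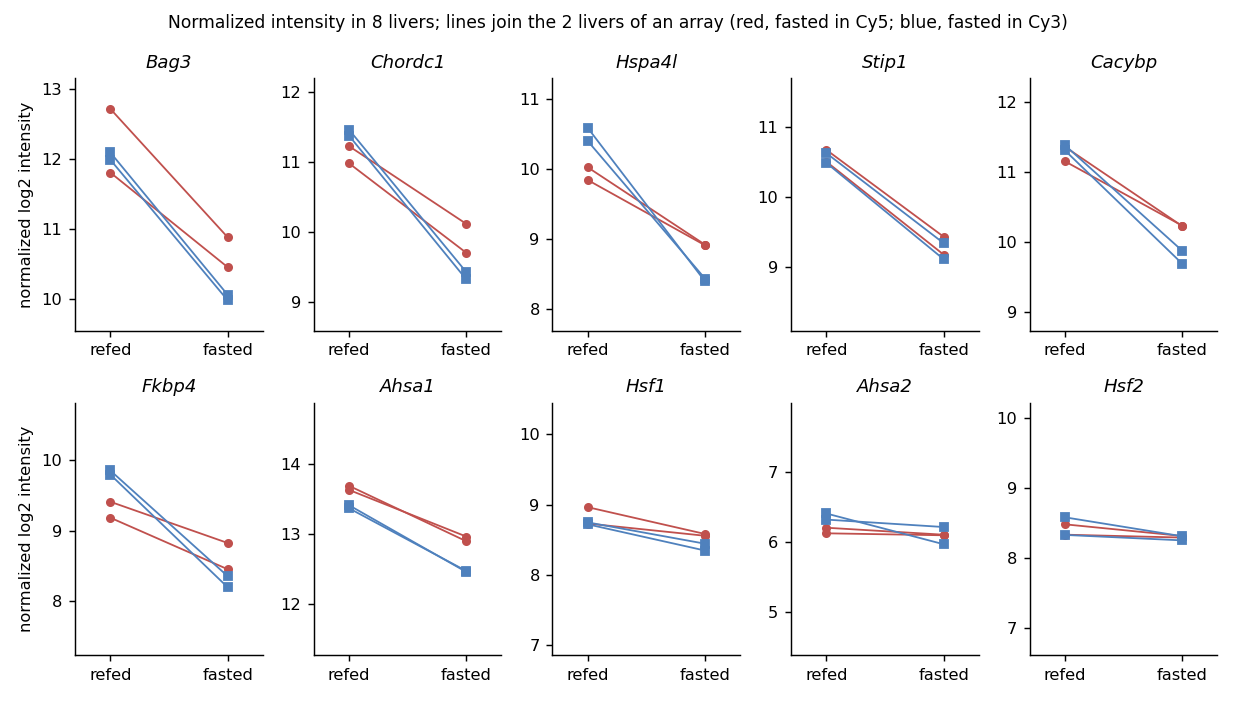
Normalized log2 intensity (y axis) of the 10 genes in 4 refed and 4 fasted livers, 1 panel for each gene on axes of equal span, with a line joining the 2 livers of each array (red, fasted liver in Cy5; blue, in Cy3). The lines of Stip1 run nearly parallel, those of Hspa4l, Chordc1 and Fkbp4 are steeper in blue than in red, and no line of Hsf1, Hsf2 or Ahsa2 falls by 1.5-fold.

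The dye orientation moved with the size of the change. In 6 of the 7 called members, all but Stip1, the ratio was more negative on both arrays with the fasted liver in Cy3 than on both arrays with it in Cy5. A dye effect fitted as a second term in limma had an adjusted p of 0.0254 for Hspa4l, 0.0277 for Fkbp4, 0.0303 for Chordc1 and 0.0683 for Cacybp. It was 0.192 for Bag3, 0.334 for Ahsa1 and 0.823 for Stip1, and 0.788 for Hsf1 and 0.758 for Hsf2. An adjusted p under 0.10 for this dye term was found for 4 members and for 14.7% of all tested probes. With 2 arrays in each orientation the dye effect cancels in the mean over arrays, and each called member was past 1.5-fold in both orientations. With the dye term in the model the same 7 members were called, with adjusted p between 0.000333 and 0.00143 in limma. Orientation was shared by the same pairs of livers, so a dye effect and a difference between those livers cannot be told apart.

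The labelled tissue was checked with markers. All 8 hepatocyte markers, Alb, Apoa1, Ttr, Cps1, Tat, Cyp2e1, Serpina1a and Fgb, were well above background on all arrays in both groups. Of these, Tat, the tyrosine-degrading enzyme gene that glucocorticoids induce, was called higher in fasted liver at a log2 ratio of 0.84 ± 0.46 (SD, n = 4; adjusted p of 0.0452 in limma), and the median of the 8 was 0.25. By array this median was 0.39, 0.48, -0.08 and -0.04, so that it too differed between the dye orientations, and its part in the members' ratios was not tested. Of the markers of other cell types, 4 of 6 immune, 4 of 4 endothelial, 3 of 4 stellate, 2 of 4 biliary and 1 of 4 fat cell markers were bright enough to be tested, and 0 of these were called. The tested fat cell marker, Cidec, had a ratio of 2.26 on replicate 2, and the biliary keratin gene Krt19 one of -1.19 on replicate 3. Of the 3 red blood cell markers with a probe, 2 were tested and 0 were called. The haemoglobin gene Hba-a1 had log2 ratios of 2.45, -0.26, 2.48 and 0.34 (mean 1.25, adjusted p of 0.21 in limma) and Alas2, of haem synthesis in red cells, 0.39, -0.28, 1.12 and 0.03 (mean 0.32, adjusted p of 0.473 in limma). Both were highest on replicates 1 and 3, arrays that differed in dye orientation and, for 6 of the 7 called members, lay on different sides of the split by dye. Their part in the members' ratios was not tested. The 10 markers of pancreatic acinar cells, of which 4 were bright enough to be tested and 0 were called, had a median log2 ratio of -3.37 on replicate 3, while the medians of the other arrays were 0.01, -0.06 and 0.04. Their summed level, as a log2 of the summed intensities, was 15.23 in the refed liver of replicate 3, 10.61 to 10.75 in the other refed livers and 10.70 to 11.29 in the fasted livers. Among the called members, the ratios on replicate 3 and replicate 4 differed by 0.02 to 0.23. Of the 7 called members, 6 were called without replicate 3, all but Fkbp4. Any part of the acinar markers in the ratios or calls of the members, Fkbp4 included, was not tested.

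The other genes of the pathway were taken from lists. Of 14 genes of heat shock chaperones, which include the cytosolic Hsp70 and Hsp90 proteins and a mitochondrial chaperonin pair, 13 were tested, 9 were called lower, 0 were called higher, and the median log2 ratio was -1.13. The number called lower was 6 without replicate 3 and 0 with all spots in the background fit. Mean log2 ratios were -2.08 for the inducible Hsp90 gene Hsp90aa1, -0.99 for the constitutive Hsp90ab1 and -2.28 for the Hsp110 gene Hsph1, the lowest of the list. They were -1.84 and -1.13 for the Hsp70 genes Hspa1a and Hspa8, and -1.72 and -1.39 for the J-domain genes Dnaja1 and Dnajb1. A dimmer probe of Dnaja1 gave -1.13 and was called too. The small heat shock protein gene Hspb1 stood at -1.33 and the mitochondrial co-chaperonin gene Hspe1 at -0.82, with -0.67 and -0.72 at its other probes, of which the former was not called (adjusted p of 0.202 in limma). Adjusted p in limma for these 9 genes ran from 0.00229 to 0.0548. Hspb8 (-0.53), Dnajb4 (-0.36), Hspd1 (-0.44) and Cryab (-0.12) were not called. Of these, Hspb8 and Dnajb4 were past the limit on p, at 0.0794 and 0.0959 in limma, but short of 1.5-fold. Hspd1 and Cryab, at 0.401 and 0.437 in limma, were past neither limit. The list split by dye as most called members did, with medians of -0.54, -0.78, -1.36 and -1.51 on replicates 1 to 4, and Hspd1 changed sign between the orientations, at 0.26, 0.10, -0.88 and -1.22. No probe carried the symbol of Hspa1b, whose sequence is nearly the same as that of Hspa1a, so the Hspa1a probe may read both genes.

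Of 21 other Hsp90 co-chaperones, 20 were tested and 0 were called in either direction, and the median log2 ratio was 0.01. Cdc37, Fkbp5, Fkbp8, Ppid, Ptges3, Stub1 and Sugt1 were among them. Members and lists were chosen with earlier results of these data known, so nothing is read from the difference between the counts of this list and of the members. An adjusted p under 0.10 in limma without the limit on fold was found for 5 of the 20, 2 lower and 3 higher, where 6.16% of tested probes were lower and 4.74% higher. Ptges3, the p23 protein that closes the Hsp90 cycle, had a ratio of -0.40 and Cdc37l1, a relative of the kinase-recruiting Cdc37, one of -0.35. Fkbp5, the glucocorticoid-induced relative of Fkbp4, had a ratio of 0.52, Fnip1 one of 0.45 and Tsc1 one of 0.37. The brightest probe of Ppid gave -0.56 with an adjusted p of 0.110 in limma, and its 3 other probes gave -0.52, -0.56 and -0.57 with adjusted p of 0.0712, 0.0688 and 0.0159, so that Ppid, counted by its brightest probe, is not among these 5. No probe of Ppid reached 1.5-fold. At 0.05 ± 0.23 (SD, n = 4), Sugt1, the gene of Sgt1, had an adjusted p of 0.840 in limma.

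Among 9 other exchange and holding factors of Hsp70, all tested, 1 was called lower, which was Hsph1 and is counted among the heat shock chaperones too, and 0 were called higher, with a median log2 ratio of -0.18. The relatives of Bag3 did not share its value, as Bag1 had a ratio of -0.01, Bag2 of -0.38, Bag4 of 0.41, Bag5 of -0.05 and Bag6 of 0.10, none of them called. Hspa4, the closest relative of Hspa4l, had a ratio of -0.18 at its brightest probe, which was not called, but -0.72 and -0.33 at its other probes, and the first of these was called lower. St13, which holds clients on Hsp70, had a ratio of -0.46 and Hspbp1 one of -0.18. Bag2 and St13 were past the limit on p, at 0.0532 and 0.0702 in limma, but short of 1.5-fold. Without the limit on fold, 3 of the 9, Hsph1 among them, were lower and 0 were higher. Of all tested probes, 6.16% were lower and 4.74% higher in this way. Of 5 other heat shock factors and their binding proteins, 3 were tested and 0 were called. Hsf4 had a ratio of -0.06, Hsbp1 of -0.11 and Hsbp1l1 of 0.02, while Hsf5, well above background in 3 of 4 refed and 0 of 4 fasted livers, and Hsf2bp, well above it in none, were not tested. Among the 10 heat shock chaperones with a promoter window, 9 held either pair of GAA units and 3 held the triple, against 3 and 1 of the 9 members with a window.

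**Figure D4:**
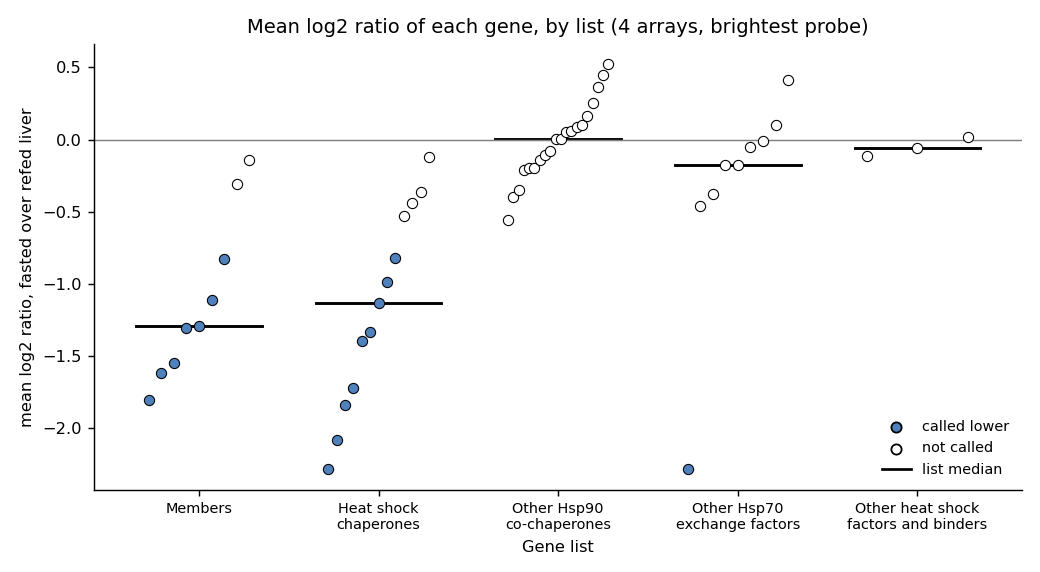
Mean log2 ratio of fasted over refed liver (y axis) of each tested gene in the members and in 4 lists of related genes (x axis), by the brightest probe of each gene, with filled points for genes called lower and a bar at the list median. Called genes are 7 of 9 members, 9 of 13 heat shock chaperones, 0 of 20 other Hsp90 co-chaperones, 1 of 9 other Hsp70 factors and 0 of 3 other heat shock factors and binders.

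The members were also compared with the other tested genes that RefSeq names, each by its brightest tested probe. The measure was the root mean square difference of the 4 log2 ratios, and the closest genes are named as a description. Hspa4l and Chordc1 were the closest pair of members, at 0.20. The gene closest to Chordc1 outside the members was Dnaja1, a J-domain partner of Hsp70, at 0.14 by its brightest probe, followed by the ER J-domain gene Dnajb9 at 0.19 and Gm6788 at 0.21. For Stip1 it was Dnajb1, the main J-domain partner of inducible Hsp70, at 0.15, followed by the prolactin receptor Prlr at 0.19 and Ubfd1 at 0.21. Bag3 was closest to Gmppb, Mid1ip1 and the ER stress protein gene Manf, at 0.17, 0.18 and 0.19. Closest to Ahsa1 were Uap1, an enzyme of UDP-GlcNAc synthesis, at 0.04, Leap2 and the ERK phosphatase Dusp6, both at 0.11. The nearest genes for Hspa4l were Gm6788, Tuba1c and Dnajb9 at 0.19, 0.22 and 0.27. Fkbp4 lay nearest to the collagen prolyl hydroxylase P4ha1 at 0.17, the ER calcium pump Atp2a2 at 0.19 and Tmem41b at 0.19. Those for Cacybp were Piga at 0.11, the haem synthesis enzyme Alas1 at 0.14 and Prlr at 0.19. All of these genes were called lower, which a small distance from a called member favours.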

How the data were processed

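RNA was extracted, and 200 ng per liver was amplified and labelled with Cy3 or Cy5 and hybridised to arrays whose spots were quantified by Agilent's Feature Extraction (version 10.10.1.1 in the file headers). The deposited scanner files hold the intensity of each spot in both channels, as pixel medians, local background and the software's processed intensity, and other columns with quality flags. The authors also deposited log2 ratios normalized by loess in limma. These were used as an alternative and had Pearson correlations of 0.975 to 0.992 with the ratios computed here, over the tested probes of each array.

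Median pixel signals (44397 spots on each array) were processed in R 4.3.3 using limma 3.58.1. Median brightness was 40 to 75 in red and 44 to 96 in green, against local backgrounds of 25 to 35 and 20 to 32.5, and 0 spots were saturated. Spots with a local background over 3 times the array median were left out (55 of 177588), background was corrected with normexp (offset 50), and ratios were normalized by loess with control spots at weight 0. Outlier spots (197 to 322 per array) were removed and spots of a probe averaged. For the levels of single livers, the average log2 intensity of both channels was also quantile-normalized between arrays in limma. That step left the ratios as they were, and no alternative varied it. A probe was tested if 1 condition or both had it well above background on every array (19721 of 39429). The 4 ratios, turned to fasted over refed, were fitted with lmFit and eBayes, two-sided and without a dye term, and p-values were adjusted by Benjamini-Hochberg across tested probes. Only the fit in limma and the alternative test SAM were run on simulated ratios. Background correction, normalization and the filter were not part of that simulation. Precision is limited by there being only 4 arrays.

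Of the probes, 26055 were named by RefSeq accession, 4125 by symbol or synonym and 9249 kept the name in the file. A gene in a list entered by its brightest tested probe. The genes named are the 10 members, those of the 4 pathway lists, the cell type markers, and for each called member the 3 closest genes outside the members. The members and lists were chosen with earlier results of these data known. Alternatives covered background, source of the values, normalization, filters, dye term, SAM with all 16 sign flips (the test the study names), thresholds, probes and replicates left out.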

Additional observations from a re-analysis of the deposited data

Results flagged for a closer look

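Of 22 values examined over the 4 arrays, the 10 members' ratios and the medians of 12 gene lists, 1 had a single array far from the others. The median log2 ratio of the 10 pancreatic acinar markers was -3.37 on replicate 3, and its gap to the nearest array was 0.972 of the range over the 4 arrays. About 1 in 20 such groups would be marked by chance. None of the 10 members was marked. The ratios of Bag3, Hspa4l, Stip1, Ahsa1, Chordc1 and Cacybp were called without replicate 3 as well, and that of Fkbp4 was not.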

How the results depend on the processing

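Each count was recomputed under 23 alternatives. The number of members called lower was 7 in the reported analysis, 6 to 8 under every alternative except normexp on all spots, where it was 0, and 6 to 7 when 1 array was left out. Members called higher stayed at 0 throughout, and no member with a test changed sign. With normexp on all spots, the 7 called members had log2 ratios of -1.26 to -0.41 and adjusted p of 0.135 to 0.559 in limma, heat shock chaperones called lower were 0, other Hsp70 factors called lower 0, and probes called 14 lower and 5 higher. Why that fit gave so few calls was not tested here. Without spots the software flagged for background, Chordc1 and Hsf1 could not be fitted. The limit of 2-fold removed Ahsa1, and removing the fold limit added Hsf1. Ahsa2, which had no test in the reported analysis, moved to -0.68 with plain subtraction and -1.27 with Agilent's processed signals. It was tested with no filter and without replicate 1, at adjusted p of 0.466 and 0.418 in limma, and was not called. Probes called lower (410) became 714 with plain subtraction, 904 with processed signals, 635 with median centring, 1215 with no fold limit, 132 at 2-fold, and 257 to 529 with an array left out, the fewest without replicate 3. Probes called higher (335) became 550 with plain subtraction, 686 with processed signals, 935 with no fold limit, 99 at 2-fold, and 208 to 414 with an array left out. Median centring lowered the share of calls that were higher from 45.0% to 26.6% and moved the median of tested probes to -0.06 (-0.15 on replicate 1), with 7 members still called. Other Hsp90 co-chaperones called lower became 1 with median centring, 2 with no fold limit and 0 to 1 with an array left out, the 1 without replicate 1. Other Hsp70 factors became 2 with plain subtraction, 2 with processed signals, 2 with median centring and 3 with no fold limit. Heat shock chaperones called lower were 6 to 10 with an array left out. The livers of an array are paired in its ratio, so every fit was already paired and no further block was added.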
